A study of Homo sapiens with 6 samples.

Results

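Aminoacyl-tRNA synthetases are the enzymes that attach each amino acid to its tRNA. The genes described here are 38 in number, out of 20289 in the expression table: 19 genes for cytosolic enzymes, 3 scaffold genes that hold several of those enzymes together (AIMP1, AIMP2 and EEF1E1), and 16 genes for mitochondrial enzymes. They were chosen by gene symbol, with earlier results of these data known, and all 38 were measured above the filter on low values. In the symbols the first letter is the code of the amino acid, so RARS charges tRNA with arginine; a final 1 marks the cytosolic enzyme and a final 2 the mitochondrial enzyme, both encoded in the nucleus. The cells were of the established line RKO, from a human colorectal cancer, and carried either a control hairpin RNA (shControl, 3 libraries) or a hairpin that knocks down TRMT6 (shTRMT6, 3 libraries). TRMT6 encodes a subunit of the enzyme that methylates adenosine in tRNAs. The hairpin sequences, the number of hairpins or clones and the time after knockdown are not given in the sources used here. No label states that the 3 libraries of a group were grown as separate cultures; the p-values then reflect only how far these libraries differ, which can be technical.

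The pool of charged tRNA is what the ribosome draws on, and the synthetases set it amino acid by amino acid. In the cytosol of animal cells, some of the synthetases form a large complex around the scaffold proteins, and the others work alone or as small assemblies. When amino acids run short, uncharged tRNA activates the kinase GCN2 (gene EIF2AK4), translation slows, and the transcription factor ATF4 is made. ATF4 is known to raise many cytosolic synthetase genes through a short promoter element shared with C/EBP factors. Mitochondria translate their own few mRNAs with a separate set of enzymes, which are made in the cytosol and imported. KARS1 and GARS1 serve both compartments.

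The 8 promoter stretches below are shown because they carry the letters of that element. The element was searched as TGATGNAA on both strands, in RefSeq windows from 250 bases before to 50 bases after each annotated start (GRCh38.p14). A window was found for 33 of the 38 genes; LARS1, VARS1, YARS1, AARS2 and VARS2 had none. It occurred in 8 of the 33, that is in 7 cytosolic genes and in YARS2. Counted by window, since a gene can have several, it was in 8 of the 45 windows of these genes (17.8%) and in 1270 of all 35116 windows of the same length (3.62%). Each stretch is 30 bases, written 5′ to 3′ on the strand that carries the element, with the element in capitals.
AARS1: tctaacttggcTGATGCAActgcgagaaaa
CARS1: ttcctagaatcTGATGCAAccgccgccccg
GARS1: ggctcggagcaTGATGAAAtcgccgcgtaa
IARS1: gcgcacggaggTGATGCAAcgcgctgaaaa
MARS1: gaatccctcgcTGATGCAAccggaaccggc
NARS1: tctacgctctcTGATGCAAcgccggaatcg
TARS1: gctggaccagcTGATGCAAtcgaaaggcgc
YARS2: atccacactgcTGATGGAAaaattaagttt
In the order shown they lie at chr16:70289675-70289704, chr11:3057407-3057436, chr7:30594834-30594863, chr9:92293692-92293721, chr12:57488053-57488082, chr18:57621804-57621833, chr5:33440956-33440985 and chr12:32756076-32756105. In 6 of them the element reads TGATGCAA; GARS1 has TGATGAAA and YARS2 has TGATGGAA. The element is on the coding strand in NARS1 and YARS2 and on the opposite strand in the other 6. It sits within 33 bases of the start in CARS1, GARS1, IARS1, MARS1, NARS1 and TARS1, and 180 to 197 bases before it in AARS1 and YARS2. A match describes the letters in these windows and does not show that a factor binds there.

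TRMT6 (ENSG00000089195, chr20:5937235-5950558, minus strand, GENCODE 29) was measured first as a check of the labels. It stood at 14.4, 18.0 and 16.9 FPKM (fragments scaled to transcript length and library size, as deposited) in shControl replicates 1, 2 and 3, and at 1.58, 1.73 and 1.09 FPKM in the shTRMT6 replicates. All 3 knockdown libraries were far below all 3 controls, an 11.2-fold difference of the means, and an exact two-sided permutation test gave p = 0.1, the smallest that 3 libraries against 3 allow.

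The libraries held an estimated 18.0 to 28.2 M fragments (mega), from the steps between low FPKM values, and the synthetase gene with the fewest was supported by about 180 fragments in its lowest library. Of the 8 epithelial and colon markers checked, KRT8, KRT18, EPCAM and CDX2 were present, while KRT19, CDH1, VIL1 and LGR5 were listed at 0 in every library, and their summed level was 124 to 156 FPKM in the shControl libraries and 201 to 214 in shTRMT6. VIM and ZEB1, both mesenchymal, were present. The summed fibroblast, leukocyte and endothelial markers reached at most 1.19, 0.36 and 0.16 FPKM in any library. The part of the rise in epithelial markers in the results below was not tested.

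The synthetase genes did not move as a block when TRMT6 was reduced. Of the 38 genes, 12 rose, 5 fell and 21 did not pass the threshold (limma on log2(FPKM + 1), two-sided, Benjamini-Hochberg adjusted p under 0.05 over 10592 genes). Over all genes tested, 35.4% were called, 19.3% as higher and 16.1% as lower, against 31.6% higher and 13.2% lower among the synthetases. Their median log2 fold change was 0.12, beside 0.02 for all genes tested. The genes that rose were RARS1, NARS1, AIMP1, TARS1, HARS1, EPRS1, LARS1 and KARS1 among the cytosolic genes and HARS2, WARS2, RARS2 and YARS2 among the mitochondrial ones. The genes that fell were VARS1, QARS1, AARS1 and YARS1, and, in mitochondria, VARS2. For each of these 17 genes the 3 libraries of 1 group all lay on the same side of the 3 libraries of the other. The genes were called from these same values, so the separation adds no support to the calls. Its share over all genes tested is not given here.

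**Figure D1:**
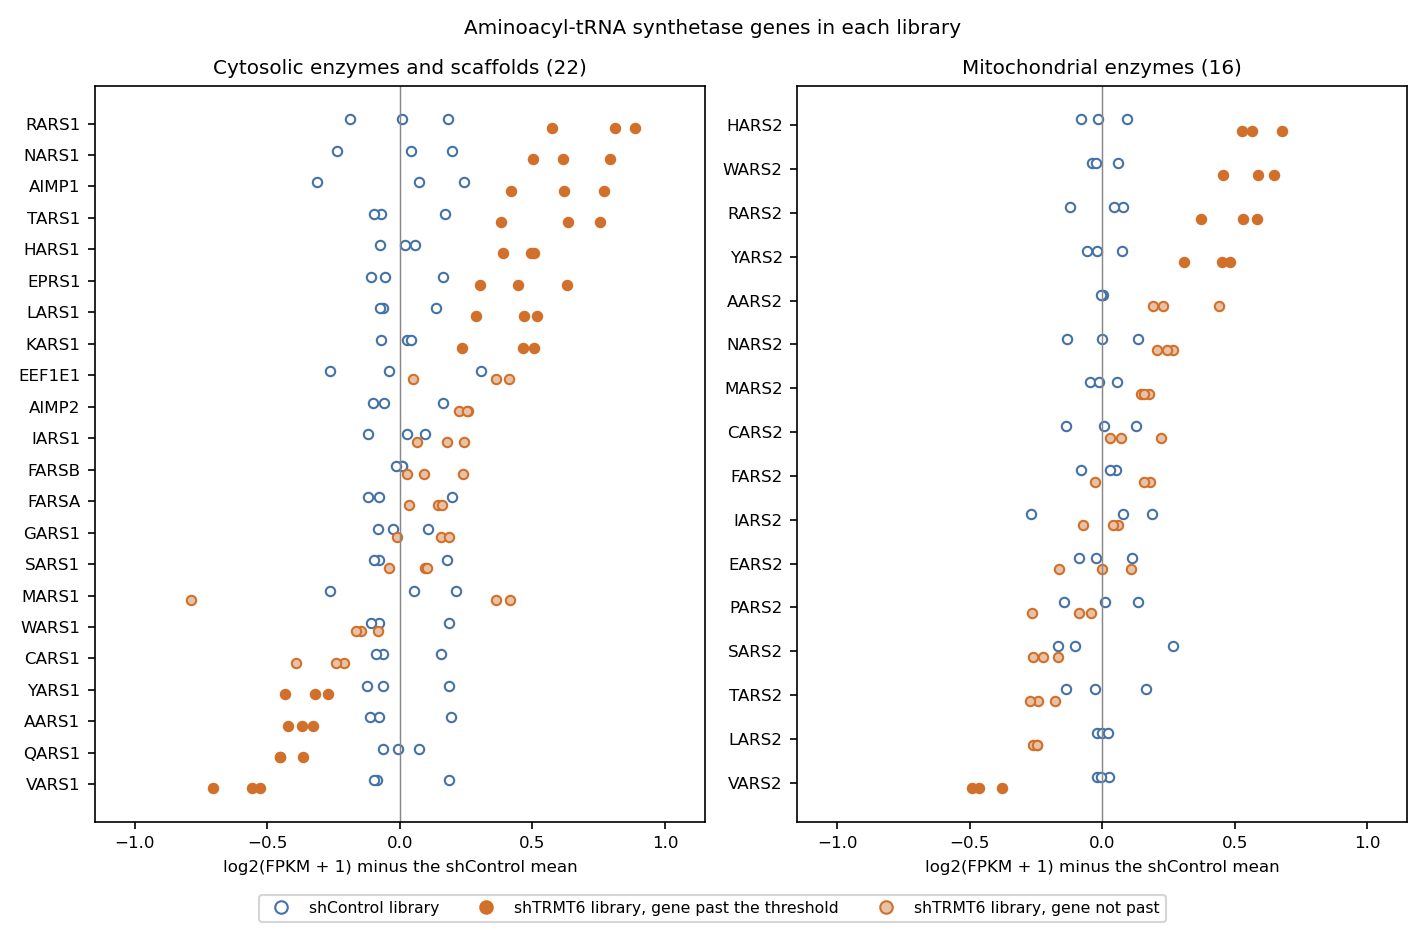
Each row is a gene and each point a library, placed at its log2(FPKM + 1) minus the mean of the 3 shControl libraries; open circles are shControl, filled circles shTRMT6, and pale fill marks genes that did not pass the threshold. The 12 genes that rose head the panels from RARS1 and HARS2 down, the 5 that fell end them, and the shTRMT6 points of MARS1 are split on both sides of 0.

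The cytosolic set counted 8 higher and 4 lower of 22, with a median log2 fold change of 0.14. The mitochondrial set counted 4 higher and 1 lower of 16, with a median of 0.10. In the fit with the replicate number as a block these counts were 10 and 5 in the cytosol and 5 and 3 in mitochondria. Over all 10592 genes tested, 2042 were higher and 1704 lower in the main fit, and 2702 and 2252 with the block. All 17 calls were kept there, and AIMP2 (adjusted p = 0.0244), EEF1E1 (0.0246) and AARS2 (0.0309) were added as higher and CARS1 (0.0146), LARS2 (0.0417) and TARS2 (0.0442) as lower. The difference between the cytosolic and the mitochondrial set was not tested. The summed level of the 19 cytosolic enzyme genes was 1465, 1453 and 1393 FPKM in the shControl libraries and 1437, 1574 and 1452 FPKM in the shTRMT6 libraries, so the groups overlapped. That of the 16 mitochondrial genes was 282, 281 and 271 FPKM against 289, 295 and 284 FPKM, a small shift without overlap.

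Levels per transcript length spanned a wide range. MARS1, QARS1 and FARSA, the catalytic subunit gene of the phenylalanine enzyme, were the most abundant when averaged over both groups, at 161, 159 and 105 FPKM. QARS1 was above MARS1 in all 3 shControl libraries. WARS2, at 4.59 FPKM, and PARS2, at 5.06 FPKM, had the lowest averages, and PARS2 was the lower in shTRMT6. QARS1 has no mitochondrial counterpart with the same name, because human mitochondria make glutaminyl-tRNA indirectly through EARS2 and an amidotransferase.

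Within the multisynthetase complex, 5 of the 10 genes measured rose (50%) and 1 fell (10%). Over all genes tested, 19.3% rose and 16.1% fell. The median of the 10 log2 fold changes was 0.34. The 12 other cytosolic genes counted 3 higher and 3 lower, with a median of 0.08. The median GC content of the transcripts was 43.4% in the complex and 51.6% in the other 12. After the GC correction described below, the median log2 fold changes were 0.25 and 0.01. The part of GC content in this difference was not tested. RARS1 (ENSG00000113643, chr5:168486445-168519299, plus strand), the arginine enzyme of the complex, gave the largest rise of all 38. It stood at 23.2, 30.2 and 26.7 FPKM in the shControl libraries and at 47.3, 49.9 and 40.0 FPKM in the shTRMT6 libraries. The means were 26.7 ± 3.53 and 45.7 ± 5.13 FPKM (SD, n = 3 each), a 1.71-fold rise (log2 fold change 0.76, SE 0.12, limma adjusted p = 0.000522). AIMP1 (ENSG00000164022, chr4:106315544-106349226, plus strand), the scaffold that RARS1 docks on and the precursor of a secreted cytokine, rose beside it. It went from 11.5, 17.4 and 15.3 FPKM to 22.9, 25.5 and 19.8 FPKM, 1.54-fold (0.60, SE 0.14, adjusted p = 0.00577). The lowest shTRMT6 library of AIMP1 was 19.8 FPKM and its highest control 17.4.

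EPRS1 (chr1:219968601-220046658, minus strand) encodes the fused glutamate and proline enzyme of the complex. It stood at 24.0, 29.2 and 24.9 FPKM in the shControl libraries and 35.7, 40.7 and 32.2 FPKM in the shTRMT6 libraries, 1.39-fold higher (adjusted p = 0.0077). LARS1 (chr5:146113038-146182660, minus strand), the leucine enzyme, which is also known as a leucine sensor upstream of mTORC1, showed a shift of like size. Its values were 38.4, 44.2 and 38.1 FPKM against 55.9, 57.8 and 49.2 FPKM, 1.35-fold higher (adjusted p = 0.00693). KARS1 (chr16:75627474-75648643, minus strand), the lysine enzyme, went from 78.6, 79.5 and 73.4 FPKM to 107, 110.0 and 90.8 FPKM, 1.33-fold higher (adjusted p = 0.00734). In all 3 genes the third shTRMT6 library was the lowest of its group and still above every control.

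QARS1 (ENSG00000172053, chr3:49095932-49105135, minus strand), the glutamine enzyme, was the exception in the complex. It fell from 175, 181 and 192 FPKM to 133, 133 and 141 FPKM, 1.34-fold lower (log2 fold change −0.42, SE 0.09, adjusted p = 0.00271). Among the complex genes that did not pass, IARS1, the isoleucine enzyme, had means of 91.0 ± 6.90 and 102 ± 6.28 FPKM with overlapping groups. AIMP2, the scaffold at the core of the complex, had means of 34.4 ± 3.54 and 40.8 ± 0.511 FPKM without overlap (adjusted p = 0.0726). EEF1E1, which also carries the name AIMP3, had 23.7 ± 4.98 and 28.7 ± 3.88 FPKM with overlap (adjusted p = 0.152).

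MARS1, the methionine enzyme, gave no clear direction. Its shControl libraries stood at 129, 179.95 and 161 FPKM, and its shTRMT6 libraries at 89.5, 199.95 and 208 FPKM. The first shTRMT6 library was the lowest of the 6 and the other two were the highest. The fitted log2 fold change was 0.00 with an SE of 0.24, the widest of the set, and 0.39 without the first shTRMT6 library (adjusted p = 0.0566). Exons of MARS1 and DDIT3, on opposite strands, overlap by 68 bases in GENCODE 29.

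Among the cytosolic genes outside the complex, NARS1 and TARS1 rose most. Both have the response element near a RefSeq start, which in TARS1 lies downstream of the first base of the gene given here. CARS1, GARS1, IARS1 and MARS1 also have it near a RefSeq start and did not pass the threshold. NARS1 (ENSG00000134440, chr18:57600656-57622213, minus strand), the asparagine enzyme, stood at 33.3, 45.3 and 40.6 FPKM in the shControl libraries and 60.9, 69.1 and 56.3 FPKM in the shTRMT6 libraries. It was 1.56-fold higher (log2 fold change 0.64, SE 0.12, adjusted p = 0.00168). TARS1 (ENSG00000113407, chr5:33440696-33469539, plus strand), the threonine enzyme, stood at 49.9, 59.1 and 49.0 FPKM against 82.1, 89.3 and 68.6 FPKM. It was 1.52-fold higher (0.59, SE 0.12, adjusted p = 0.00198). For both genes the second library was the highest within each group.

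VARS1 (ENSG00000204394, chr6:31777518-31795953, minus strand), the valine enzyme, gave the largest fall. It stood at 121, 99.7 and 98.9 FPKM in the shControl libraries and 73.3, 64.7 and 71.7 FPKM in the shTRMT6 libraries. It was 1.52-fold lower (log2 fold change −0.60, SE 0.10, adjusted p = 0.000975). AARS1 (chr16:70252295-70289543, minus strand), the alanine enzyme, which carries the same element further upstream, fell from 64.9, 53.6 and 52.3 FPKM to 44.9, 42.0 and 43.7 FPKM, 1.31-fold (adjusted p = 0.0139, and 0.0555 without shTRMT6 replicate 2). YARS1 (chr1:32775237-32818153, minus strand), the tyrosine enzyme, fell from 117, 94.0 and 98.1 FPKM to 81.7, 84.7 and 75.6 FPKM, 1.27-fold (adjusted p = 0.0205). The YARS1 call was lost without shTRMT6 replicate 1 (adjusted p = 0.0615) or replicate 3 (0.0583) and after the GC correction described below (0.0561). In all 3 genes the first shControl library was the highest of the 6.

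CARS1, GARS1, SARS1, WARS1, FARSA and FARSB did not pass the threshold. CARS1, the cysteine enzyme, had means of 25.9 ± 2.58 and 21.1 ± 1.47 FPKM without overlap of the groups (adjusted p = 0.0557). GARS1 for glycine, SARS1 for serine, WARS1 for tryptophan and FARSA had log2 fold changes of 0.11, 0.05, −0.13 and 0.11, and their groups overlapped. WARS1 is known as an interferon-induced gene. FARSB, which encodes the partner subunit of FARSA, was present at 13.6 ± 0.142 and 14.9 ± 1.20 FPKM, well below FARSA at 101 ± 12.6 and 109 ± 5.16 FPKM.

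HARS1 and HARS2, the histidine enzymes of the cytosol and of mitochondria, rose together and share a promoter region. HARS1 (ENSG00000170445, chr5:140673904-140691862, minus strand) stood at 67.9, 66.1 and 61.9 FPKM in the shControl libraries and 92.3, 93.1 and 85.7 FPKM in the shTRMT6 libraries. It was 1.38-fold higher (log2 fold change 0.46, SE 0.09, adjusted p = 0.002). HARS2 (ENSG00000112855, chr5:140691426-140699318, plus strand) stood at 12.9, 14.6 and 13.5 FPKM against 20.7, 22.4 and 20.1 FPKM, 1.54-fold higher (0.59, SE 0.10, adjusted p = 0.000998). Neither gene's groups came near each other. The RefSeq starts of the divergent pair are 85 bases apart, and the 84 bases between them, chr5:140691371-140691454 in GRCh38.p14 on the plus strand, are shown because both genes moved in the same direction. The capitals mark CCGGAAG, the core that ETS factors recognise, on either strand.
HARS1-HARS2: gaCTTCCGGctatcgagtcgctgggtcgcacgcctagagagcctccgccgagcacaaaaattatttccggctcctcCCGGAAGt
The core stands once beside each start, and it occurs in 10.3% of all promoter windows (3603 of 35116) and in 20 of the 45 windows of the synthetase genes (44.4%), which belong to 17 genes. The windows of HARS1 and HARS2 share 184 bases, so the same sites count for both genes. Sites of GARS1, SARS1 and EARS2 are likewise counted from several starts, so the 20 windows are not separate stretches. In GENCODE 29 the exons of the pair overlap by 402 bases on opposite strands. The strand setting of the counting is not given in the sources used here, so reads in that overlap could count for either gene.

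WARS2, RARS2 and YARS2 rose in the mitochondrial set as well. WARS2 (ENSG00000116874, chr1:119031216-119140671, minus strand), the tryptophan enzyme, went from 3.39, 3.70 and 3.44 FPKM to 6.06, 5.77 and 5.18 FPKM. The ratio of the means was 1.62, and the fitted log2 fold change of 0.56 (SE 0.12, adjusted p = 0.0027) understates it, because 1 is added to low values. RARS2 (chr6:87514378-87590003, minus strand), the arginine enzyme, mutated in a form of pontocerebellar hypoplasia, stood at 7.85, 9.17 and 8.94 FPKM and then at 12.9, 13.4 and 11.5 FPKM, 1.46-fold higher (adjusted p = 0.00458). YARS2 (chr12:32727490-32755902, minus strand), the tyrosine enzyme, stood at 23.5, 25.8 and 24.1 FPKM and then at 34.5, 33.8 and 30.5 FPKM, 1.35-fold higher (adjusted p = 0.00602). In each of them the lowest knockdown library was clear of the highest control.

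VARS2 (ENSG00000137411, chr6:30908242-30926459, plus strand), the valine enzyme, was the mitochondrial gene that fell. It went from 37.8, 36.6 and 37.0 FPKM to 26.1, 26.6 and 28.4 FPKM, 1.37-fold lower (log2 fold change −0.44, SE 0.09, adjusted p = 0.00297). Its groups were tight and wide apart. Among the 11 mitochondrial genes that did not pass, AARS2 for alanine went from 9.41 ± 0.0306 to 11.7 ± 1.22 FPKM (SD, n = 3 each; adjusted p = 0.0564), and LARS2 for leucine from 15.9 ± 0.240 to 13.2 ± 0.0954 FPKM (adjusted p = 0.0602). NARS2, the asparagine enzyme, was at 8.21 ± 0.855 and 9.85 ± 0.226 FPKM, and MARS2, the methionine enzyme, at 16.8 ± 0.649 and 18.9 ± 0.197. TARS2, the threonine enzyme, was at 28.7 ± 3.17 and 24.2 ± 0.834 FPKM. The groups of these 5 genes lay apart, and their adjusted p ran up to 0.214, for MARS2. The share of all genes tested whose groups lie apart is not given here, so this separation adds no support for a change. CARS2, EARS2, FARS2, IARS2 and PARS2 overlapped between groups, with log2 fold changes from −0.13 for PARS2 to 0.11 for CARS2. SARS2, at 11.4 ± 2.08 and 9.59 ± 0.348 FPKM, is uncertain. Of the 75-base windows of its longest coding transcript, 85.4% also occur in transcripts of other genes. AC011455.2 shares the most.

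Setting each cytosolic enzyme beside the mitochondrial enzyme for the same amino acid gave 17 pairs, in which EPRS1 appears for both glutamate and proline and FARS2 faces both subunits FARSA and FARSB. The cytosolic gene was the more abundant in every library in 16 of the 17 pairs. The exception was cysteine, where the ratio of CARS1 to CARS2 was 0.793 ± 0.0349 in shControl and 0.600 ± 0.0421 in shTRMT6 (SD, n = 3 each). The log2 fold changes of the members of a pair had the same sign in 7 pairs. Both members passed the threshold in 4 pairs: arginine and histidine rose in both compartments, valine fell in both, and for tyrosine YARS1 fell while YARS2 rose. With the replicate block both members passed in 7 pairs, of which 3 moved in the same direction and 4 (alanine, leucine, threonine and tyrosine) in opposite directions.

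For 6 pairs only the cytosolic member passed, for tryptophan only the mitochondrial one, and for 6 pairs neither. The ratio of cytosolic to mitochondrial FPKM moved in opposite directions for different amino acids. For threonine, TARS1 over TARS2 was 1.55, 2.11 and 1.89 in shControl and 3.42, 3.80 and 2.73 in shTRMT6. For leucine, LARS1 over LARS2 rose from a mean of 2.53 ± 0.226 to 4.12 ± 0.364. For tryptophan the order was opposite, and WARS1 over WARS2 went from 31.0, 23.6 and 24.8 to 14.3, 14.4 and 15.8. For tyrosine, YARS1 over YARS2 went from 4.23 ± 0.676 to 2.45 ± 0.0728, and for alanine AARS1 over AARS2 from 6.05 ± 0.740 to 3.74 ± 0.401. These ratios are given as a description, without a test, and in each of these 5 pairs the 3 libraries of a group lay apart from the other 3. That was not particular to them: of all 17 pairs, the ratio lay apart as higher in 7 and as lower in 5. The share among other pairs of genes is not given here.

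**Figure D2:**
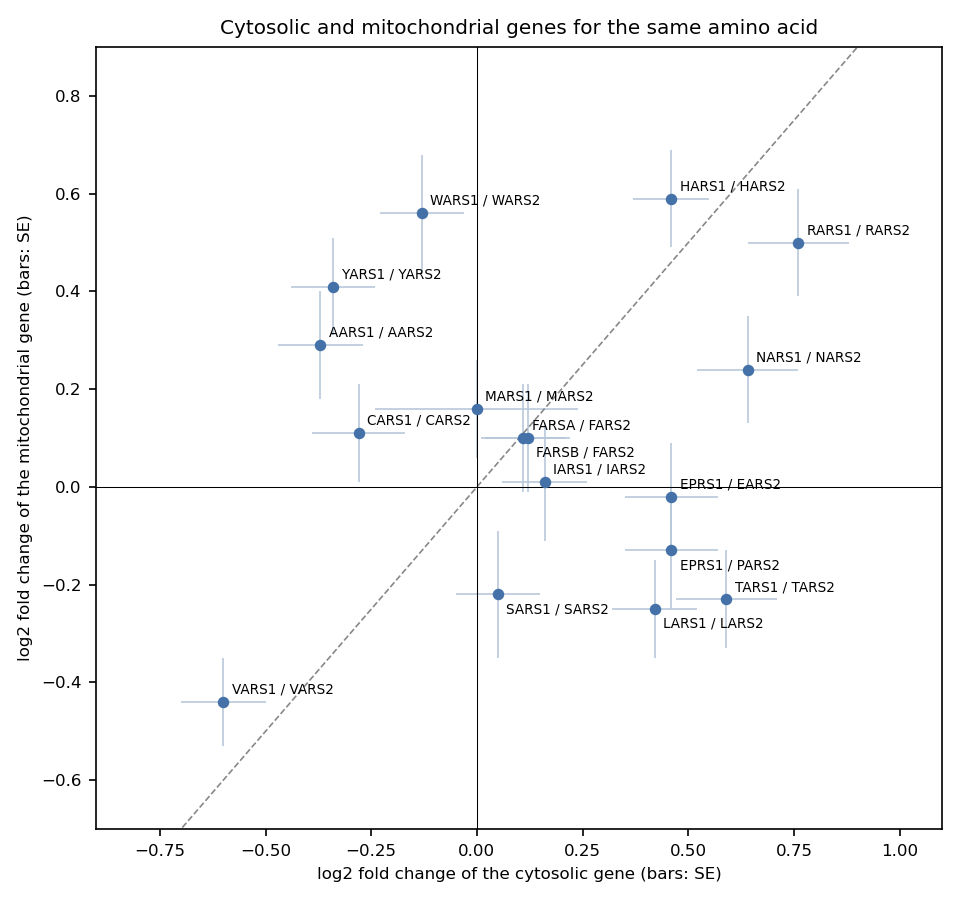
Each point is a pair of enzyme genes for the same amino acid, with the log2 fold change of the cytosolic gene on the horizontal axis and of the mitochondrial gene on the vertical axis, both shTRMT6 against shControl, with bars of 1 SE; the dashed line marks equal changes. The arginine and histidine pairs lie at the upper right and the valine pair at the lower left, while tryptophan, tyrosine and alanine lie at the upper left and threonine and leucine at the lower right.

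The genes that rose and the genes that fell differed in base composition. GC content, taken from the longest coding transcript in GENCODE 29, was 36.3% to 49.9% in the 12 genes that rose and 53.5% to 62.6% in the 5 that fell. Of the 19 synthetase genes under 50% GC, 12 rose and none fell, and of the 19 at or above 50%, none rose and 5 fell. All genes tested showed the same lean: 29% were higher and 6.76% lower under 50% GC, and 8.34% were higher and 26.6% lower at or above it. AIMP1 had the lowest GC of the 38 and VARS1 the highest. The libraries differed in their trend on GC, with slopes of 0.22, −0.00462 and 0.0337 log2 units per 10 points of GC in shControl replicates 1, 2 and 3 and of −0.0715, −0.153 and −0.0248 in shTRMT6.

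When each library's smooth trend on GC was removed, 16 of the 17 calls were kept, and YARS1 was the exception (adjusted p = 0.0561). The totals were then 15 higher and 5 lower of the 38. Over all 10573 genes tested with this correction, 2089 were higher and 2056 lower. AARS2, AIMP2 and FARSA passed as higher and LARS2 as lower. The fitted size shrank for every called gene but HARS2 and YARS2: RARS1 went from 0.76 to 0.54 and VARS1 from −0.60 to −0.44. It shrank by over 1.5 times for 6 of the 17: AIMP1 went from 0.60 to 0.34, EPRS1 from 0.46 to 0.28, LARS1 from 0.42 to 0.21 (adjusted p = 0.0494), RARS2 from 0.50 to 0.29, WARS2 from 0.56 to 0.37 and YARS1 from −0.34 to −0.22. HARS2 and YARS2, both at 49.9% GC, were at 0.59 and 0.61 and at 0.41 and 0.43. The fitted values of IARS1, IARS2, FARSB, MARS1 and EARS2, none of them called, changed sign.

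**Figure D3:**
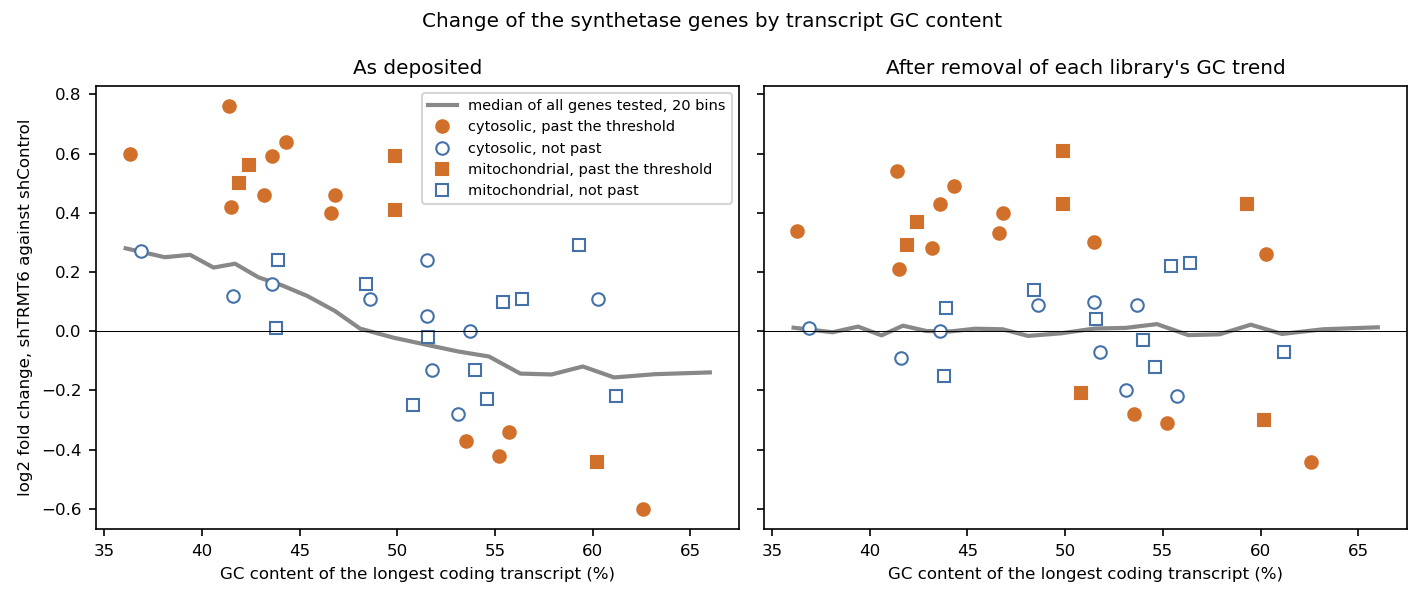
GC content of the longest coding transcript (horizontal axis, percent) against the log2 fold change of shTRMT6 over shControl (vertical axis), with the values as deposited on the left and after removal of each library's GC trend on the right; circles are cytosolic genes, squares mitochondrial genes, filled where past the threshold, and the grey line is the median of all genes tested in 20 bins of GC. On the left all filled points above 0 lie under 50% GC and all below 0 lie above it; on the right AARS2, AIMP2 and FARSA have become filled points above 0 at over 50% GC.

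Grouping the enzymes by structural class, which follows the fold of the catalytic domain, left out EPRS1, which holds a domain of each class, and gave 5 higher and 4 lower of 18 in class I (median log2 fold change 0.00) and 5 higher and 1 lower of 16 in class II (median 0.12). The shares were 27.8% higher and 22.2% lower in class I and 31.2% and 6.25% in class II. Over all genes tested they were 19.3% and 16.1%. Both classes spanned from clear falls to clear rises. In class I RARS1 rose and VARS1 fell, and in class II NARS1 rose and AARS1 fell. By position, chosen after the values were seen, the 5 synthetase genes on chromosome 5 (RARS1, HARS1, HARS2, LARS1 and TARS1) all rose, beside 26.6% of the 466 genes tested there. Of the 6 on chromosome 6, RARS2 rose and VARS1 and VARS2 fell, beside 20.9% higher and 14.2% lower of 536.

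The cytosolic synthetase genes known as ATF4 targets did not follow a single direction. Of 13 on the list, NARS1, TARS1, LARS1 and EPRS1 rose (30.8%) and VARS1, AARS1 and YARS1 fell (23.1%). Over all genes tested the shares were 19.3% and 16.1%. The median of the 13 log2 fold changes was 0.05. The 6 cytosolic enzyme genes not on the list counted 3 higher (RARS1, HARS1 and KARS1) and 1 lower (QARS1), with a median of 0.26. Among the 8 genes whose promoter letters are shown above, NARS1, TARS1 and YARS2 rose, AARS1 fell, and CARS1, GARS1, IARS1 and MARS1 did not pass. The mRNA of ATF4 itself (ENSG00000128272) fell in these cells: it stood at 237, 228 and 225 FPKM in the shControl libraries and 148, 146 and 140.07 FPKM in the shTRMT6 libraries. That was a 1.59-fold fall (log2 fold change −0.67, SE 0.08, adjusted p = 0.000141). ATF4 is regulated mostly at translation, which these data do not measure.

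Of 25 genes of the ATF4 pathway, 21 passed the filter, 5 rose and 5 fell (23.8% each). Over all genes tested, 19.3% rose and 16.1% fell. The median log2 fold change of the 21 genes was 0.04. With the replicate block 6 rose and 6 fell, beside 2702 and 2252 of all 10592 genes tested. DDIT3 was added there as higher and SLC7A5, an amino acid transporter, as lower. SLC7A5 (adjusted p = 0.0855, and 0.00468 with the block) was named after its values were seen. ASNS, the asparagine synthetase and a standard readout of ATF4, stood at 45.2, 32.3 and 31.4 FPKM in the shControl libraries and 27.6, 28.5 and 26.7 FPKM in the shTRMT6 libraries (adjusted p = 0.0418). That call was lost without shControl replicate 1 (adjusted p = 0.0907) and without shTRMT6 replicate 1 (0.101), 2 (0.0712) or 3 (0.0995). PHGDH, which opens serine synthesis, fell 2.04-fold, from 88.0, 71.4 and 64.3 FPKM to 35.7, 37.95 and 35.9 FPKM (adjusted p = 7.1e-05). CHAC1, which degrades glutathione, fell 2.38-fold, from 7.58, 4.40 and 2.92 FPKM to 2.22, 2.22 and 1.82 FPKM (log2 fold change −0.88, adjusted p = 0.00722, and −0.58, adjusted p = 0.0172, without shControl replicate 1). CEBPB, a C/EBP partner of ATF4, rose 1.62-fold, from 22.1, 16.4 and 15.04 FPKM to 31.5, 25.0 and 30.3 FPKM (adjusted p = 0.00263). DDIT3, the stress factor CHOP, went from 11.3 ± 2.04 to 13.9 ± 0.602 FPKM (adjusted p = 0.0919, and 0.0265 with the replicate block). DDIT4, an mTORC1 inhibitor, and EIF2AK2, the kinase PKR, passed as higher (adjusted p = 0.0313 and 0.0254), but the groups of both overlapped. The log2 fold change of EIF2AK2 was 0.47, and 0.23 with the GC correction; that of DDIT4 was 0.58, and 0.36 without shControl replicate 3; that of ASNS was −0.36, and −0.20 without shControl replicate 1. The DDIT4 call was lost without shControl replicate 2 (adjusted p = 0.0566) or 3 (0.125) and without shTRMT6 replicate 1 (0.0719) or 3 (0.0954). The EIF2AK2 call was lost without shControl replicate 1 (0.0828), without shTRMT6 replicate 1 (0.0781) or 2 (0.0928) and with the GC correction (0.0732). With no filter on low values the adjusted p was 0.115 for ASNS, 0.0657 for CHAC1, 0.14 for DDIT4 and 0.101 for EIF2AK2, and with quantile normalization 0.0535 for ASNS and 0.0857 for DDIT4. SLC7A11, VLDLR, STC2 and NUPR1 did not reach the filter, and their highest value in any library was 1.06 FPKM, for SLC7A11.

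**Figure D4:**
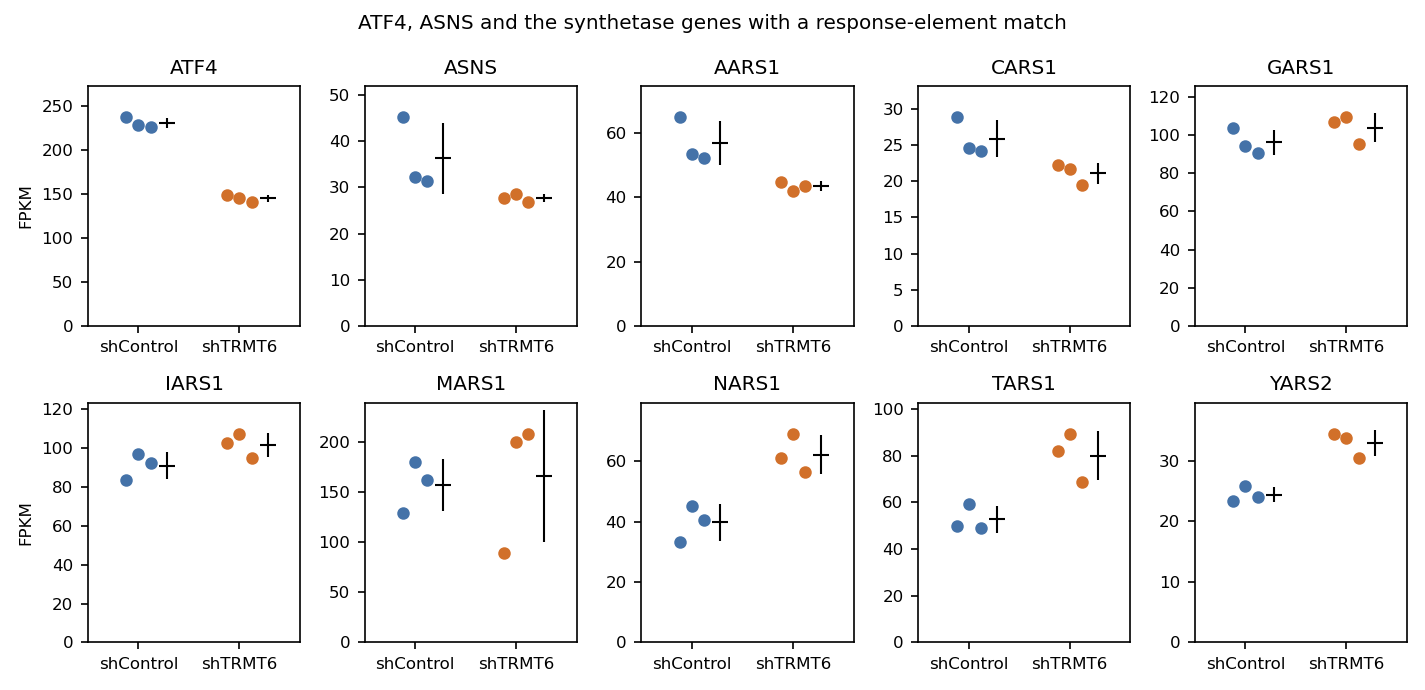
FPKM on a linear axis from 0 for ATF4, ASNS and the 8 synthetase genes with the response element in their promoter window; each point is a library, blue for shControl and orange for shTRMT6, in the order of replicates 1 to 3, and the black marks are the mean and SD of 3. ATF4 fell without overlap, NARS1, TARS1 and YARS2 rose without overlap, AARS1 fell, and the first shTRMT6 library of MARS1 lies below the rest.

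Genes that make, move or use charged tRNA changed in both directions too. Of 24 such partners, 7 rose and 3 fell (29.2% and 12.5%), beside 19.3% and 16.1% of all genes tested; their median log2 fold change was 0.22, beside 0.02. With the replicate block 11 rose and 5 fell, beside 2702 and 2252 of all genes tested. TRNT1, which adds the CCA end that synthetases charge, rose 1.68-fold, from 7.46, 9.25 and 8.06 FPKM to 14.0, 15.9 and 11.8 FPKM (log2 fold change 0.68, adjusted p = 0.00144, and 0.43 with the GC correction, adjusted p = 0.0034). EEF1A1, the elongation factor that carries charged tRNA to the ribosome, rose 1.42-fold, from 7462 ± 234 to 10600.0 ± 733 FPKM (SD, n = 3 each; adjusted p = 0.00174). EEF1A1 has many near-identical pseudogene copies, so its reads are uncertain, and the call was lost with no filter on low values (adjusted p = 0.0576). TARS3, a further cytosolic threonine enzyme, rose 1.71-fold at a low level, from 2.27, 3.02 and 2.28 FPKM to 3.77, 4.87 and 4.32 FPKM (adjusted p = 0.00455), as TARS1 did.

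Among the partners that fell, EEFSEC, the elongation factor for selenocysteine tRNA, dropped 1.74-fold, from 11.4, 8.93 and 7.22 FPKM to 5.82, 4.98 and 5.04 FPKM (adjusted p = 0.00333). XPO5, an exporter of small RNAs from the nucleus, fell 1.40-fold, from 45.35, 38 and 41.7 FPKM to 34.1, 28.3 and 26.8 FPKM (adjusted p = 0.00591). PTRH2, a peptidyl-tRNA hydrolase of mitochondria, fell 1.41-fold, from 41.0, 53.3 and 55.3 FPKM to 35.5, 35.3 and 35.3 FPKM (adjusted p = 0.00687). In each of these 3 genes all knockdown libraries were below all controls. The genes were called from these same values, so the separation adds no support to the calls.

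Exons shared with a neighbour on the other strand limit several of the values, since the strand setting is not given in the sources used here. In GENCODE 29 the overlap was 387 bases for AIMP1 (with TBCK), 396 for YARS1 (S100PBP), 272 for WARS1 (WDR25), 235 for AARS2 (TMEM151B) and 370 for EARS2 (UBFD1). It was 532 bases for AIMP2, with EIF2AK1, which stood at 28.8 ± 0.563 and 32.2 ± 1.36 FPKM (chosen after its values were seen). Of the 75-base windows of the longest coding transcript, AIMP2 shares 39.9%, EEF1E1 31.8% and HARS2 13.8% with other genes, on either strand. EIF2AK1 shares the most with AIMP2, the readthrough gene EEF1E1-BLOC1S5 with EEF1E1, and HARS1 with HARS2.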

How the data were processed

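Total RNA from RKO cells was extracted with TRIzol and made into libraries with a NEBNext Ultra kit, per the labels' protocols. The deposited values are FPKM, per the file headers; the authors' steps from reads to FPKM are known only as tool names (fastp 0.18.0, Bowtie2 2.2.8, HISAT2, StringTie 1.3.1, RSEM), per the submitters' processing notes, and the genome build was not given in the sources used here. Columns were matched to samples by group abbreviation and replicate number. Of 20289 genes, 5274 were listed at 0 in all 6 libraries.

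FPKM are not counts, so limma 3.58.1 (R 4.3.3) was fitted, with a trended prior, on log2(FPKM + 1) over the 10592 genes whose mean reached 1 FPKM, and p-values were adjusted by Benjamini-Hochberg (threshold 0.05). Adjusted p are from this model unless another setting is named beside them. In simulated data for this comparison, 10392 of 10592 genes were left unchanged. The model recovered 42 of 48 rises of 1.0 log2 unit and 14 of 55 of 0.5. It recovered 41 of 42 falls of 1.0 and 21 of 55 of 0.5. In the measured data 35.4% of genes were called, so the adjusted threshold was less strict there. These recoveries therefore do not carry over to the measured data. The log scale understates changes of low genes. Coordinates, lengths and GC content came from GENCODE 29 by identifier, and promoter windows from RefSeq. Depth was estimated from the steps between low values and is rough.

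The 38 genes and all gene lists were chosen with earlier results of these data known. The rule for named genes was TRMT6, all 38, and from the ATF4 and tRNA partner lists up to 6 genes past the threshold with the largest change, plus ATF4, DDIT3 and ASNS. Same-numbered libraries deviated together from their group means, with correlations across genes of 0.206, 0.364 and 0.17 for replicates 1, 2 and 3. For other numbers they ran from −0.288 to 0.0936. Deviations cancel within a group, so positive correlations for same numbers push the others down, and the contrast is not independent evidence. The numbers were taken to pair the libraries, from the data and not the labels. Calls added with the replicate block therefore rest on a pairing chosen from these same data. Values with the block are given where they change a call of a named gene, and as counts for the lists. Alternatives were other pseudocounts, filters, scalings and variance prior, a GC correction, the block, and each library left out.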

Additional observations from a re-analysis of the deposited data

How the results depend on the processing

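Over 16 alternatives all 17 calls among the synthetase genes kept their direction, and they were lost only for YARS1 (GC correction, without shTRMT6 replicate 1 or 3) and AARS1 (without shTRMT6 replicate 2). WARS2 falls under a filter of 5 FPKM and has no value there. The count of mitochondrial genes lower was 1, and 2 with no filter on low values, quantile normalization, median-of-ratios scaling or GC correction, and 3 with the replicate block, with or without GC correction; the count higher was 4, and 5 with the replicate block or the GC correction, 7 with both together and 3 with a filter of 5 FPKM. Leaving out 1 library gave 1 to 2 mitochondrial genes lower, a mitochondrial median log2 fold change of 0.0627 to 0.154, and 2407 (without shTRMT6 replicate 2) to 3618 genes changed in all, against 3746; 2465 were left without shTRMT6 replicate 1. The cause was not tested.

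Fitted values changed sign for 5 genes that were not called. With GC correction, alone or with the replicate block, they were −0.0913 for FARSB, −0.00337 for IARS1, −0.151 for IARS2 (adjusted p = 0.0481 with both, past the threshold as lower), 0.0896 for MARS1 and 0.0374 for EARS2, and with median-of-ratios scaling −0.0252 for IARS2. Without single libraries MARS1 ran from −0.21 to 0.39 (0.389, 0.101 and 0.0236 where positive), IARS2 from −0.125 to 0.10 (−0.0166 and −0.00695 in between) and EARS2 from −0.0807 to 0.0551 (also 0.039). Among the genes named by rule, the replicate block changed no call other than those given in the report; in the lists it moved the tRNA partners from 7 higher and 3 lower to 11 and 5 and the ATF4 pathway from 5 and 5 to 6 and 6. FPKM carry no counts, so no counting interval was given, and 3 libraries a group limit the precision.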
